A study of Mus musculus with 36 samples.

Results

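Imprinted genes are expressed mainly from 1 parental allele, and 10 of them, chosen by name, were followed here across 3 maps of replication timing (RT). The genes were *Igf2*, *H19*, *Cdkn1c*, *Kcnq1*, *Peg3*, *Snrpn*, *Meg3*, *Dlk1*, *Igf2r* and *Grb10*. All 10 were found among the 37252 genes of the GENCODE M1 annotation on mm9, and 8 of them are among its 22350 protein-coding genes, with *H19* and *Meg3* annotated as noncoding RNAs. They lie in 7 imprinted clusters, so neighbouring genes share domains and are not independent of each other.

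The study measured RT by Repli-seq, in which the new DNA of BrdU-labelled cells is sequenced after the cells are sorted by their place in S phase, and it asked how RIF1 regulates RT in B cells. The series held 36 libraries in 7 groups, of which 8 underlie the shLacZ CH12 map and the WT primary B map, 4 per map from 2 replicates of an early and a late S phase fraction. CH12 is a mouse B cell lymphoma line, used as clone F3 and infected with a lentivirus carrying an shRNA against LacZ, the control for infection and shRNA expression. Primary B cells were splenic B cells activated in culture from mice with intact *Rif1*, and the age of the mice is not given in the sources used here. The labels describe the culture of both cell types with the same text, which names CH12 cells and stimulation with IL4, anti-CD40 and TGF beta. A further map is named for WT mouse embryonic fibroblasts (MEFs). No label ties it to a sample and its reads were public data of another series, so batch and laboratory cannot be told apart from cell type wherever it is compared. The other 5 groups were not analysed here. In each map the genome was cut into domains that replicate early (E), in the middle (M) or late (L), in steps of 20 kb, after smoothing over 300 kb. Replicates were merged before the domains were called, which leaves 1 map per condition, no replicate error and no test between cell types. Read depth is unknown from the maps, and they hold no expression values with which the cell types could be checked.

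Imprinting mostly rests on DNA methylation that is laid down in the germ line of 1 parent at a control region, and that is kept on that parent's chromosome in the cells of the offspring. Most imprinted genes lie in clusters under such a control region, and many of them act on fetal growth. The parental copies of several imprinted loci have been described as replicating at different times in the same cell. The maps do not separate alleles, so each state described here is that of both parental chromosomes together.

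The gene starts spanned all 3 states, and 4 of the 10 kept 1 state in all 3 maps. *H19*, *Kcnq1*, *Cdkn1c* and *Igf2r* were E in CH12, primary B cells and MEFs, the most common of the 25 combinations of states found among protein-coding genes (43.9% of them). *Igf2* was E in CH12, M in primary B cells and E in MEFs, a combination shared by 322 protein-coding genes (1.44%). *Grb10* was M in CH12 and primary B cells and E in MEFs (5.71%), *Dlk1* and *Meg3* were L in CH12 and M in the other maps (5.62%), and *Peg3* was L in CH12 and primary B cells and M in MEFs (3.88%). *Snrpn* was M in CH12 but L in the primary B and MEF maps, which held for 38 protein-coding genes (0.170%) and ranked 20 of the 25 combinations. Of the 10 genes, placed by their outermost starts, *Snrpn* was thus the one with the rarest combination and *Igf2* the next. The other annotated *Snrpn* start was L in all 3 maps, so its combination depended on the start taken.

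**Figure D1:**
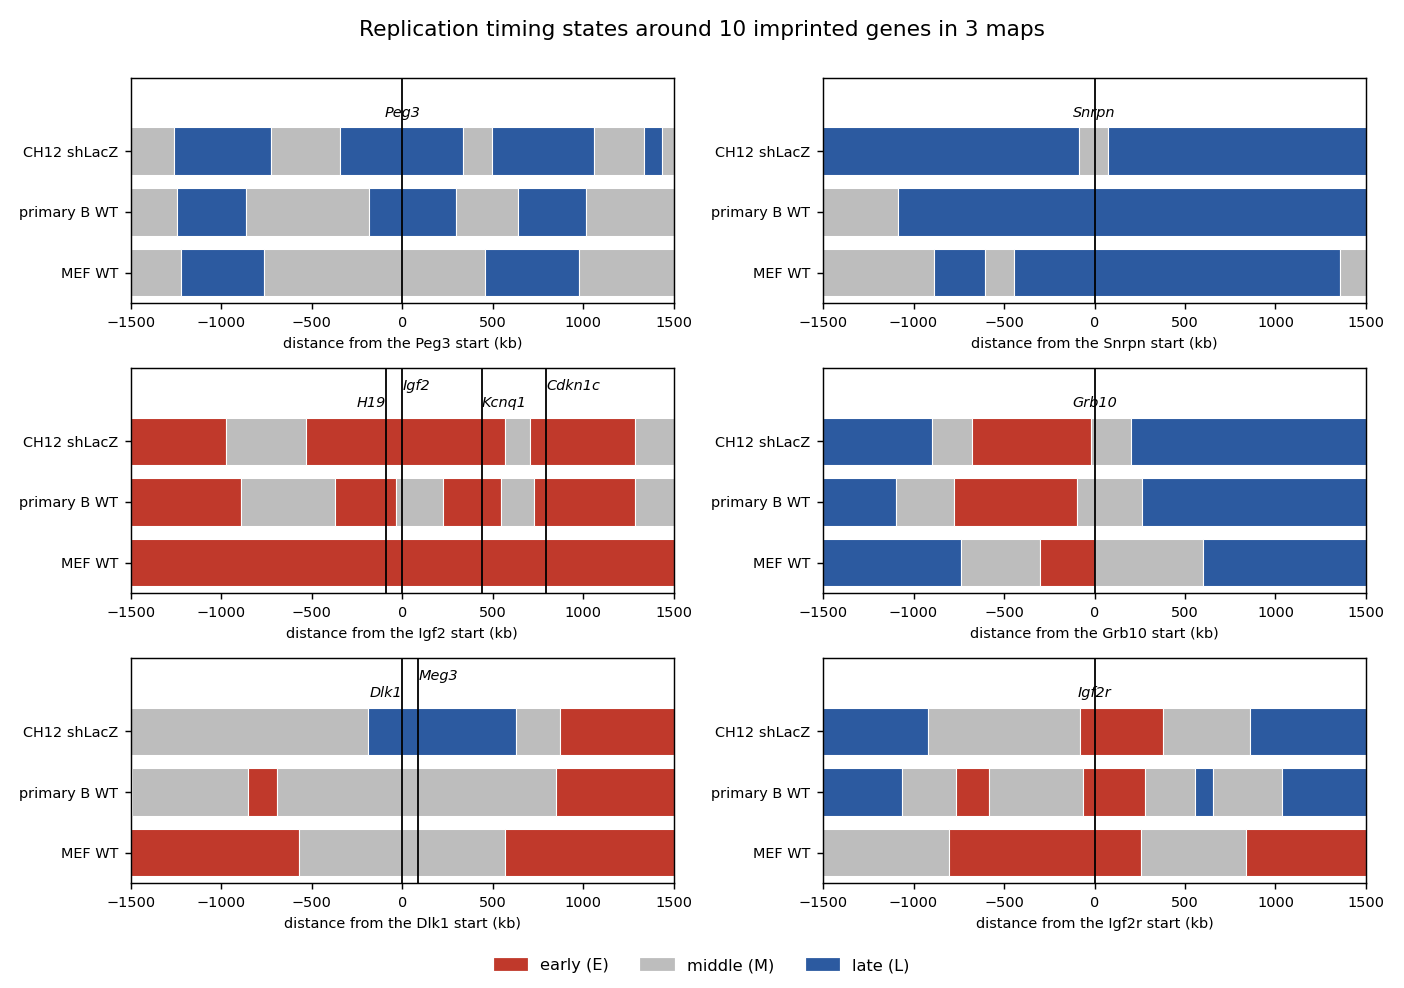
RT states in 3 maps around the starts of the 10 imprinted genes; each horizontal bar is 1 map, its colours are the E, M and L domains, the x axis is the distance in kb from the named gene start along the chromosome, and vertical lines mark gene starts. *Igf2* falls in an M stretch of 260 kb between E domains in primary B cells, and *Snrpn* in an M stretch of 160 kb between L domains in CH12 cells.

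The letters upstream of the genes whose placement the results turn on are shown first, since CpG sites carry the methylation on which imprinting mostly rests. Each run is the 250 bases before the start on the gene's own strand, read 5′ to 3′ from the mm9 reference, and capitals mark CpG sites. The first pair belongs to *H19* and *Igf2*, whose starts are 88.7 kb apart on the minus strand (chr7:149764049-149764298 and chr7:149852722-149852971) and which differed in state in primary B cells.
H19: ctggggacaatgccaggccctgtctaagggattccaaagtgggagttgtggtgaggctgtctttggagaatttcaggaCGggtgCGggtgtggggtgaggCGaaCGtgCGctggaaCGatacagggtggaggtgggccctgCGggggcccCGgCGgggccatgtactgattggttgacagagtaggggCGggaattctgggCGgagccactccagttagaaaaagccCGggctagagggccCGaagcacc
Igf2: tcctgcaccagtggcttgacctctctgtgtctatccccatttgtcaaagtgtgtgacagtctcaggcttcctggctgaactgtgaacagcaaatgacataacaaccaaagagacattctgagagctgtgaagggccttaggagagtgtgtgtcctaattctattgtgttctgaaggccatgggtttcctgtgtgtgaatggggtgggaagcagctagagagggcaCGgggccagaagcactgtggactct
The second pair belongs to *Snrpn*, whose 2 annotated transcripts start 135 kb apart on the minus strand (chr7:67285106-67285355 for the gene start and chr7:67150043-67150292 for the shorter transcript) and which differed in state in CH12 cells.
Snrpn gene start: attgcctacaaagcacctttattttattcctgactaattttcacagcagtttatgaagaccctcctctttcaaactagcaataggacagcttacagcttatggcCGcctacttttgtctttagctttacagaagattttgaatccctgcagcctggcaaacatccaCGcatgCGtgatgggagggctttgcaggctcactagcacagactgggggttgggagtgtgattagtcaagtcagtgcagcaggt
Snrpn shorter transcript: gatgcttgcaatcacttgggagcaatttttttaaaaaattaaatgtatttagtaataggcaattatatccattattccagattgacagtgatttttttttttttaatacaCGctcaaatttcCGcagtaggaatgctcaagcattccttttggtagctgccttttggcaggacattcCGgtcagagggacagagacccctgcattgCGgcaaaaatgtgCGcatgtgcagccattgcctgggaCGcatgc
The third pair belongs to *Dlk1* and *Meg3*, which start 88.2 kb apart on the plus strand (chr12:110690783-110691032 and chr12:110778961-110779210) and had the same state in every map.
Dlk1: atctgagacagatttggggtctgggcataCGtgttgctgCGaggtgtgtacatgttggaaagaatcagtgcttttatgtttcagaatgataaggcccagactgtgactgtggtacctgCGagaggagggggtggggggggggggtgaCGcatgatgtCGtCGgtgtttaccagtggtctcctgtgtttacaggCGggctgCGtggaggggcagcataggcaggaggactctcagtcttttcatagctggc
Meg3: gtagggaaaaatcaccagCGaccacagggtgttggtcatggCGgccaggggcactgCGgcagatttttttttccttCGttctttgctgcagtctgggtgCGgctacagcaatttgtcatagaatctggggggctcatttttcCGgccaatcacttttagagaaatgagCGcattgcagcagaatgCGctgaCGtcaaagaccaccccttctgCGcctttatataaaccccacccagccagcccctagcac
The *H19* run holds 13 CpG sites and the *Igf2* run 1. The *Snrpn* gene start has 3 and the shorter transcript 6, *Dlk1* has 8 and *Meg3* 10. Upstream of the other genes there were 32 CpG sites at *Cdkn1c*, 32 at *Igf2r*, 25 at *Kcnq1*, 8 at *Peg3* and 5 at *Grb10*. Over the 22345 protein-coding promoters of the same length the median was 8, with quartiles of 3 and 18. These numbers depend on the start taken, here the outermost. The windows were placed by gene starts and not by the control regions of the clusters, and methylation was not measured. Over their annotated transcript starts, CpG sites ranged from 8 to 41 at *Dlk1*, from 0 to 47 at *Grb10* and from 0 to 31 at *Igf2*, so these genes, which were not E in all maps, also had starts above the upper quartile. The letters TGCCGC, the motif of the zinc finger protein ZFP57 that keeps imprints methylated, were searched on both strands. Of the runs shown, those of *Meg3* and of the shorter *Snrpn* transcript held them once each. They were not in the windows of the other 9 gene starts, and 9.99% of protein-coding promoters held them. Over all annotated starts they were found at 4 of 9 in *Dlk1*, 3 of 10 in *Meg3*, 1 of 9 in *Igf2*, 1 of 3 in *Peg3* and 1 of 2 in *Snrpn*. Windows of nearby starts overlap, so 1 motif can be counted more than once, whereas the 9.99% is from 1 window per gene.

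The distal end of chromosome 7 carries 4 of the genes in 2 neighbouring clusters. *Igf2* encodes a fetal growth factor expressed from the paternal allele, and *H19* a noncoding RNA expressed from the maternal allele under the same control region. *Kcnq1* encodes a potassium channel subunit, and *Cdkn1c* encodes a cyclin-dependent kinase inhibitor that restrains growth. In MEFs all 4 starts lay in 1 E domain of 4604 kb that ran to the end of the chromosome. In CH12, *H19*, *Igf2* and *Kcnq1* shared an E domain of 1100 kb, and *Cdkn1c* lay in the next E domain, of 580 kb. In primary B cells each of the 4 starts had a domain of its own, of 340 kb for *H19*, 260 kb for *Igf2*, 320 kb for *Kcnq1* and 560 kb for *Cdkn1c*. The 4 starts therefore lay in 1 domain in MEFs, in 2 in CH12 and in 4 in primary B cells.

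*Igf2* (chr7:149836673-149852721, minus strand, 16.0 kb) was the gene of this group that changed state. Its start lay 533 kb from the nearest domain edge in CH12 and 1933 kb in MEFs, but 32.7 kb in primary B cells. There the M stretch reached from 149820001 to 150080000 on chromosome 7 and had E domains on both sides. It held the starts of 3 protein-coding genes, *Igf2*, *Ins2* (insulin) and the predicted gene *Gm6471*. The whole of the stretch was E in CH12 and in MEFs. Of the 283 M stretches between E domains in the primary B map, 49 (17.3%) were no longer than this one. *H19* (chr7:149761434-149764048, minus strand, 2.62 kb) stayed E on the other side of the edge, 56.0 kb from it, against 444 kb in CH12 and 1844 kb in MEFs. All 9 annotated transcript starts of *Igf2*, spread over 9.35 kb, had the same states as the gene start. The *Igf2* start lay closer to the edge than the 300 kb smoothing span, and E covered most of the 600 kb around it in primary B cells too.

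A further M stretch lay inside the body of *Kcnq1* (chr7:150293159-150612955, plus strand, 320 kb). It was 140 kb long in CH12 and 180 kb in primary B cells, had E domains on both sides, and had no counterpart in MEFs, where the whole gene was E. It began 127 kb after the *Kcnq1* start in CH12 and 107 kb in primary B cells, and it ended 267 kb and 287 kb after the start. The last 53.0 kb of the gene in CH12 and 33.0 kb in primary B cells were E again. No protein-coding gene started in the stretch in either map, and *Kcnq1ot1*, an imprinted gene of the same cluster, was not matched by name and could not be placed. E therefore covered 56.2% of the *Kcnq1* body in CH12, 43.7% in primary B cells and 100% in MEFs. Stretches of this kind were no longer in 27 of 200 cases in CH12 (13.5%) and in 21 of 283 in primary B cells (7.42%). In both maps the stretch was shorter than the 300 kb smoothing span. The start of *Cdkn1c* (chr7:150644255-150646955, minus strand, 2.70 kb) lay beyond it, 87.0 kb from the edge in CH12 and 67.0 kb in primary B cells, and 2727 kb from an edge in MEFs. The left edge of the *Cdkn1c* domain differed by 20 kb, 1 bin, between the B cell maps, and its right edge by 0.

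*Igf2r* encodes the receptor that clears IGF2 and is expressed from the maternal allele in most mouse tissues. It (chr17:12875272-12962530, minus strand, 87.3 kb) was E in all 3 maps, in a domain of 460 kb in CH12, 340 kb in primary B cells and 1060 kb in MEFs. The start lay 82.5 kb, 62.5 kb and 257 kb from the nearest edge in the same order. In both B cell maps the edge fell within the gene. E covered 94.6% of its body in CH12 and 71.7% in primary B cells, with the remainder M, against 100% in MEFs. Of its 4 annotated transcript starts, 1 was M in primary B cells and the others were E. *Airn*, the antisense noncoding RNA that begins within *Igf2r*, was also E in all maps, whereas *Slc22a2* and *Slc22a3*, further along the same cluster, were M in CH12 and primary B cells and E in MEFs.

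*Grb10* encodes an adaptor that dampens insulin receptor signalling. It (chr11:11830511-11938686, minus strand, 108 kb) lay where E passes into L. In CH12 its start was in an M domain of 220 kb between an E and an L domain, 18.7 kb from the E domain. In primary B cells that M domain was 360 kb long and the E domain 98.7 kb away. In MEFs the start was in an E domain of 300 kb, 1.31 kb from its edge, the smallest distance of any listed gene in any map. The edge ran along the gene in the B cell maps, so that E covered 82.7% of the body in CH12 and 8.77% in primary B cells, against 100% in MEFs. Among its 12 annotated transcripts, spread over 100 kb of starts, 4 began in E and 8 in M in CH12, all but 1 in M in primary B cells, and all 12 in E in MEFs. The state of *Grb10* thus depended on which of its starts was taken in both B cell maps. No protein-coding gene shared its domain in all 3 maps, since the interval common to them was 20 kb long.

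*Dlk1* encodes a transmembrane protein related to Notch ligands and is expressed from the paternal allele, and *Meg3* encodes a noncoding RNA expressed from the maternal allele. *Dlk1* (chr12:110691033-110701546, plus strand, 10.5 kb) and *Meg3* (chr12:110779211-110809936, plus strand, 30.7 kb) shared a domain in every map. It was an L domain of 820 kb between M domains in CH12. In primary B cells it was an M domain of 1540 kb between E domains, and in MEFs an M domain of 1140 kb between E domains. *Dlk1* lay 191 kb from the nearest edge in CH12, 691 kb in primary B cells and 569 kb in MEFs. *Meg3* lay 279 kb, 761 kb and 481 kb from it. These M domains were long, as 261 of the 283 M stretches between E domains in primary B cells (92.2%) and 223 of 309 in MEFs (72.2%) were no longer. The transcript starts of both genes had 1 state per map.

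*Peg3* encodes a zinc finger protein expressed from the paternal allele. It (chr7:6656603-6683132, minus strand, 26.5 kb) lay in an L domain of 680 kb in CH12, 337 kb from the nearest edge, and in an L domain of 480 kb in primary B cells, 183 kb from it. In both B cell maps the domain had M on each side. In MEFs the start lay in an M domain of 1220 kb between L domains, 457 kb from the edge, with 29 protein-coding starts. *Zim1* and *Usp29*, imprinted genes of the same cluster, had the states of *Peg3* in all maps.

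*Snrpn* (chr7:67127388-67285105, minus strand, 158 kb) encodes a protein of the spliceosome expressed from the paternal allele. Transcripts of this gene begin at promoters far apart, and the control region of the cluster is known to lie at the promoter nearer the coding exons, not at the outermost start by which the gene was placed here. The shortest domain around any listed start, over all 3 maps, was that of *Snrpn* in CH12. In CH12 its start lay in an M stretch of 160 kb, 74.9 kb from the edge, between L domains of 3600 kb and 3400 kb. In primary B cells it lay in an L domain of 4400 kb, 1085 kb from the edge, and in MEFs in an L domain of 1800 kb, 445 kb from the edge. The CH12 stretch reached from 67200001 to 67360000 on chromosome 7 and held the starts of *Snrpn* and of the predicted gene *Gm7367*. Of the 391 M stretches between L domains in CH12, 32 (8.18%) were no longer. This CH12 stretch was shorter than the 300 kb smoothing span. The stretch covered the first 54.0% of the gene body and L the other 46.0%. The shorter transcript, shown above, began outside the M stretch, in the L part, in CH12 and was L in all maps. Of the 5 other genes of its cluster that were matched, *Ndn*, *Magel2*, *Mkrn3*, *Peg12* and *Ube3a*, all were L in both B cell maps. In MEFs *Ube3a* was L like *Snrpn*, and the other 4 were M. By its gene start, *Snrpn* was hence the earliest of the matched genes of its cluster in CH12 and among the latest in MEFs.

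**Figure D2:**
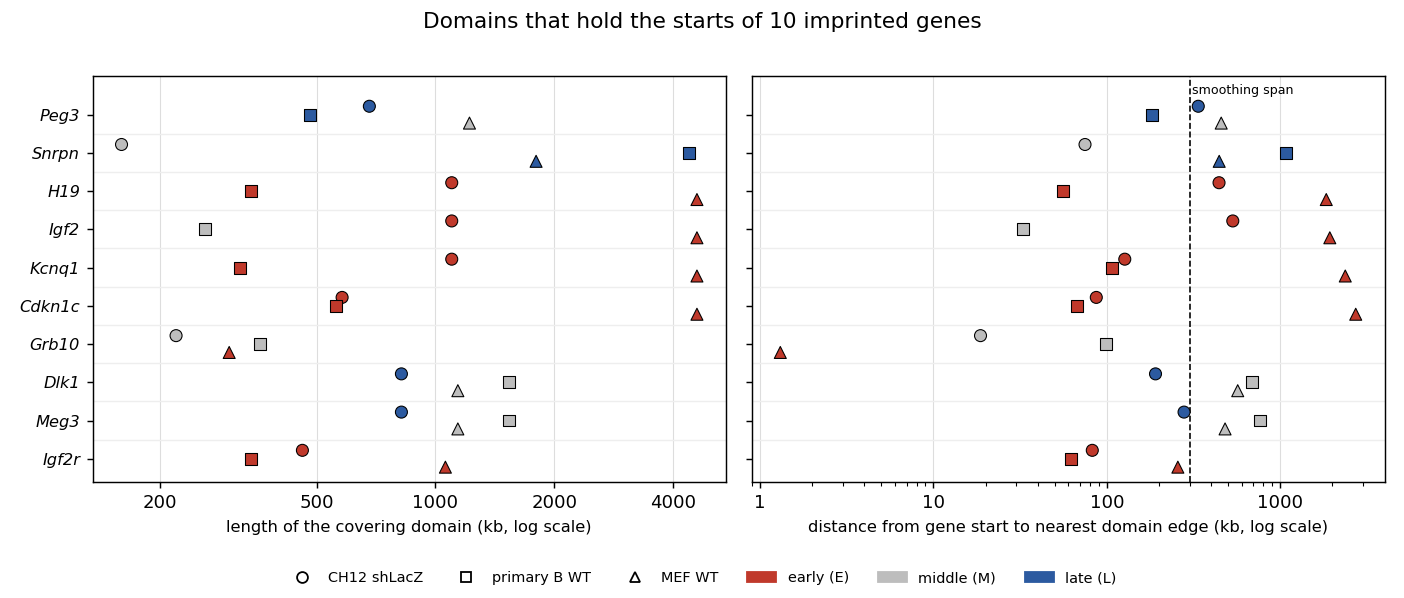
Length of the domain that holds each gene start (left, kb, log axis) and distance from the start to the nearest domain edge (right, kb, log axis) for the 10 genes; circles are CH12, squares primary B cells and triangles MEFs, fill colours are the E, M and L states, and the dashed line is the 300 kb smoothing span. In MEFs the 4 genes of distal chromosome 7 share a domain of 4604 kb, and *Grb10* lies 1.31 kb from an edge.

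The wider surroundings were described by the 1000 kb centred on each start. For the genes of distal chromosome 7, E covered all of this window in MEFs. In CH12 it covered 94.4% around *H19*, 100% around *Igf2*, 86.0% around *Kcnq1* and 85.3% around *Cdkn1c*, and the remainder was M. In primary B cells the corresponding shares were 52.4%, 61.3%, 56.0% and 81.3%, lower at each of the 4 genes, though 3 of them kept the E state at the start. Around *Igf2r*, E covered 46.0% in CH12, 34.0% in primary B cells and 75.7% in MEFs. *Grb10* ran the other way from its own state. Its start was E in MEFs alone, but E covered 48.1% of the window in CH12, 40.1% in primary B cells and 30.0% in MEFs, while L covered 29.9%, 23.9% and 0% of it. L covered 69.1% around *Dlk1* and 77.9% around *Meg3* in CH12 and 0% in the other maps. Around *Peg3* it covered 68.3% in CH12, 48.0% in primary B cells and 4.31% in MEFs. *Snrpn* had the most L of the 10 genes in every map, with 84.0% in CH12, 100% in primary B cells and 94.5% in MEFs, so that its M start in CH12 stood in a window that was otherwise L.

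Counted by map, 5 starts were E, 2 M and 3 L in CH12, where all protein-coding starts were E in 50.6%, M in 27.2% and L in 22.1% of cases. In primary B cells 4 were E, 4 M and 2 L, beside 58.0%, 29.1% and 12.9% of protein-coding starts. In MEFs 6 were E, 3 M and 1 L, beside 58.6%, 29.6% and 11.9%. The starts lay in 7 distinct domains in CH12, 9 in primary B cells and 6 in MEFs. Genes of 1 domain share a state, so these counts are given as a description.

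Between maps, 6 of the 10 genes differed in state in at least 1 pair. Here and below, earlier and later refer to state labels, which need not span the same RT values in different maps. The paper describes fewer early and more mid-replicating domains in WT primary B cells than in shLacZ CH12 cells. By the labels, 660 domains were E and 1337 M in primary B cells, beside 555 and 1320 in CH12. Protein-coding starts are another measure. They were E in 58.0% and M in 29.1% of cases in primary B cells, and in 50.6% and 27.2% in CH12. The labels thus differ from the paper's description for E but not for M. The paper links its description to RT density profiles, and the maps hold no RT values. The cause of the difference for E was not tested. From CH12 to primary B cells, *Dlk1* and *Meg3* were earlier, and *Igf2* and *Snrpn* were later, where 18.8% of protein-coding starts were earlier and 2.75% later. Relative to CH12, *Peg3*, *Grb10*, *Dlk1* and *Meg3* were earlier in MEFs and *Snrpn* was later, beside 23.1% and 6.81%. Relative to primary B cells, *Peg3*, *Igf2* and *Grb10* were earlier in MEFs and none was later, beside 13.2% and 11.8%. These pairs share maps, so the same gene can be counted in several of them. The same state in all 3 maps was found for 4 of the 10 genes and for 62.8% of protein-coding starts. No listed gene was E in 1 map and L in another, but the share of protein-coding starts that were is not given here, so this has no background.

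The listed genes lay in shorter domains than protein-coding starts did in each map, by the median. The medians were 750 kb in CH12 (range 160 to 1100), 420 kb in primary B cells (260 to 4400) and 1510 kb in MEFs (300 to 4604), against 1520, 1480 and 2040 kb over all protein-coding starts. Edges were nearer in the B cell maps and farther in MEFs. The median distance was 159 kb in CH12, 103 kb in primary B cells and 525 kb in MEFs, against 305, 315 and 418 kb. Of the 10 starts, 4 in CH12, 5 in primary B cells and 1 in MEFs lay within 100 kb of an edge, beside 20.2%, 18.7% and 15.1% of protein-coding starts. Within 300 kb, the smoothing span, lay 7, 7 and 2 of them, beside 49.4%, 48.4% and 39.7%. In MEFs, 4 of the 10 values come from the single domain at the end of chromosome 7.

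Base composition around the starts was described as well, since E domains are richer in G and C than L domains. The 20 kb bin of the start had 36.7% GC at *Snrpn*, 42.3% at *Peg3*, 46.0% at *Igf2r*, 47.1% at *Grb10* and 48.5% at *Meg3*. It had 50.2% at *Kcnq1*, 51.6% at *H19*, 52.1% at *Dlk1*, 53.0% at *Igf2* and 53.2% at *Cdkn1c*. Over protein-coding starts in CH12, the median was 47.5% for E, 43.5% for M and 40.3% for L, with quartiles of 38.2% and 42.5% for L. *Dlk1* and *Meg3*, which were L in CH12, thus had more GC than the upper quartile of L starts, whereas *Snrpn*, which was M there, had less than the lower quartile of M starts (41.4%). *Igf2*, M in primary B cells, had 53.0% beside an upper quartile of 45.4% for M starts in that map.

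The genes whose placement was most like that of each listed gene were the nearest protein-coding genes that shared its domain in all 3 maps. They were *Zim1* for *Peg3* (34.0 kb between starts, 4 such genes in all), *Gm7367* for *Snrpn* (15.3 kb, 1 gene), *Mrpl23* for *H19* (45.3 kb, 9 genes) and *Ins2* for *Igf2* (32.7 kb, 2 genes). For *Kcnq1* it was *Trpm5* (12.6 kb, 6 genes), for *Cdkn1c* *Slc22a18* (12.7 kb, 14 genes), for *Meg3* and *Dlk1* *Rtl1* (59.3 kb and 148 kb), and for *Igf2r* *Gm17592* (68.5 kb, 10 genes). *Zim1*, *Ins2*, *Slc22a18* and *Rtl1* are imprinted themselves.

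Other imprinted genes were taken from a list of 45, of which 41 were matched by name, 25 in the clusters above and 16 elsewhere. In CH12, 15 were E, 12 M and 14 L, in primary B cells 18, 15 and 8, and in MEFs 24, 16 and 1, to be read beside the shares of protein-coding starts above. Genes share domains here too. The 41 lay in 27 distinct pairs of domains between CH12 and primary B cells, and in 26 between CH12 and MEFs. Those in the clusters above are not independent of the listed genes. Of the 25 in the clusters, 11 were E, 3 M and 11 L in CH12. In primary B cells these numbers were 10, 7 and 8, and in MEFs 14, 10 and 1. From CH12 to primary B cells, 10 of the 41 were earlier (24.4%) and 1, *Ins2*, was later (2.44%), near the 18.8% and 2.75% of protein-coding starts. The 10 were *Rtl1*, *Rian* and *Mirg*, which lie in the domain of *Dlk1* and *Meg3*, and *Plagl1*, *Mest*, *Peg10*, *Sgce*, *Gnas*, *Sfmbt2* and *Slc38a4* elsewhere, in 7 distinct domains. Relative to CH12, 21 were earlier in MEFs (51.2%, in 13 distinct pairs of domains) and 1 later, beside the 23.1% and 6.81% of protein-coding starts given above. Relative to primary B cells, 15 were earlier in MEFs (36.6%, in 9 distinct pairs of domains) and 2 later (4.88%), beside 13.2% and 11.8%. Neighbours did not always share a change: *H19* stayed E where *Igf2* and *Ins2* went to M, *Dio3* stayed M where *Dlk1* and *Meg3* went from L to M, and the other matched genes of the *Snrpn* cluster stayed L where *Snrpn* went from M to L. The *Snrpn* case is by its outermost start, and its other annotated start was L in all 3 maps.

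**Figure D3:**
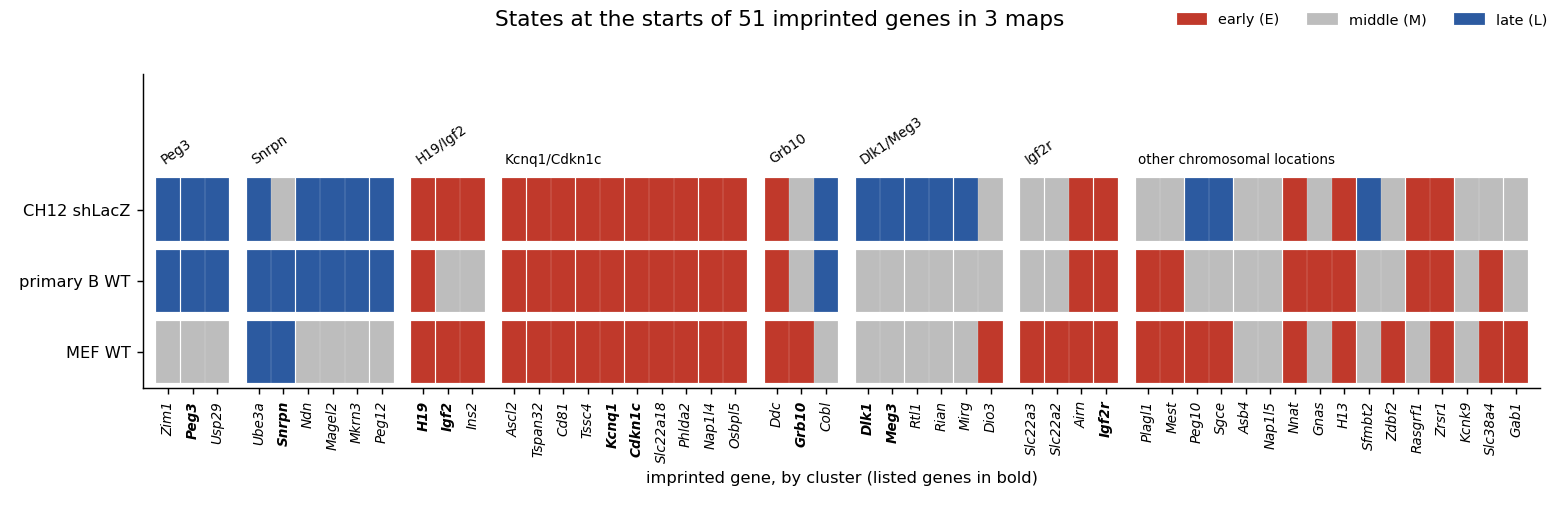
RT state at the start of each imprinted gene in 3 maps; each column is 1 gene, grouped by cluster and ordered along the chromosome within it (genes at other locations in no set order), with the 10 listed genes in bold, and each row is 1 map coloured by E, M and L. By its outermost start *Snrpn* is M among L neighbours in CH12, and *Igf2* and *Ins2* are M beside *H19* in primary B cells.

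**Figure D4:**
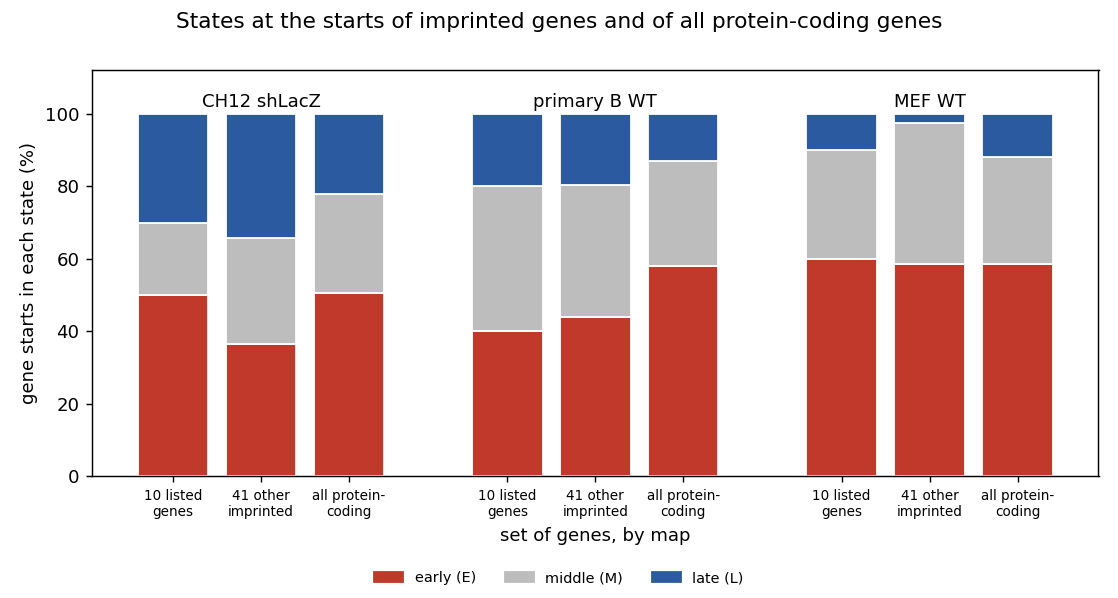
Percentage of gene starts in each state, for the 10 listed genes, the 41 other imprinted genes and all 22350 protein-coding genes, in each of the 3 maps; bars are stacked to 100% and colours are the E, M and L states. Of the 41 other imprinted genes, 14 are L in CH12 and 1 in MEFs.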

How the data were processed

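Early and late S phase Repli-seq libraries were made by the authors from CH12 and primary B cells. Per their methods, reads were trimmed (Trim Galore 0.6.5), aligned to mm9 (BWA 0.7.17) and filtered for unique alignments. Replicates were merged and duplicates removed, the log2 early to late ratio was taken in 20 kb windows (deepTools), smoothed by loess over 300 kb and cut into 3 states with a hidden Markov model. Versions are from the submitters' processing notes. The deposited maps hold the start, end and state number of each domain (unit: other) and no RT value, so states of different maps need not span the same RT values, and edges are blurred by the smoothing.

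State numbers were read as 2 E, 1 M and 0 L in the CH12 and primary B maps, and 0 E, 2 M and 1 L in the MEF map. In each map E and L domains touched in 0 places, and protein-coding starts were densest in E (18.9, 17.6 and 16.1 per Mb) and sparsest in L (3.76, 2.88 and 3.29). Maps had 2625, 2661 and 2151 domains. The last domain of each chromosome ended at its NCBIM37 (mm9) length. Genes were placed by the start on their own strand (GENCODE M1). Distances to a chromosome end were not counted as edges. All 10 genes were named, together with the other imprinted genes that differed between the CH12 and primary B maps and the nearest protein-coding genes in the same domains. The genes and lists were chosen with earlier results of these data known. *Zim3*, *Zfp264*, *Kcnq1ot1* and *Peg13* were not matched by name. Placement by gene body, end or midpoint, windows of 200 and 600 kb, domains of at least 100 kb, joining across 40 kb, 1 gene per cluster, distance from edges and other gene sets were tried. Functions were tested on simulated maps. Scripts ran in Python 3.11.15 with pandas 2.3.3, numpy 2.4.6, matplotlib 3.10.9 and scipy 1.17.1.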

Additional observations from a re-analysis of the deposited data

How the results depend on the processing

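No paired analysis was possible because domains were called on merged replicates, with 1 map per condition. Of 126 alternative values of 27 results, 99 stayed within 1.5 times the reported count or median, or within the Wilson 95% interval of a background share, and 27 moved. With 1 gene per cluster, of 7 clusters, *H19*, *Kcnq1* and *Dlk1* were kept and *Igf2*, *Cdkn1c* and *Meg3* left out. The E genes in CH12 then went from 5 to 3 and the M genes in primary B cells from 4 to 2. The genes that differ between CH12 and primary B cells went from 4 to 2. Fewer genes were counted, and *Igf2*, which was M in primary B cells and E in CH12, was among those left out. The M genes in CH12 went from 2 to 1 by gene body, by gene end and from the second *Snrpn* start (chosen after seeing the data), and to 0 over 600 kb. Genes that differ between CH12 and MEFs went from 5 to 3 over 600 kb. Genes that differ between CH12 and primary B cells went from 4 to 6 by gene body, at the limit of 1.5 times and so counted as unmoved. They went to 3 over 600 kb and from the second *Snrpn* start. Among genes over 100 kb from an edge in both maps, 2 of 4 differed between CH12 and primary B cells, 3 of 6 between CH12 and MEFs and 1 of 5 between primary B cells and MEFs, where fewer genes were left to count. The 2 were *Dlk1* and *Meg3*, which share 1 domain in each map and are also among the 3. The share of protein-coding starts under this filter was not computed, so these counts have no background. The median edge distance in primary B cells fell from 103 to 61.4 kb at gene midpoints. Single states changed as follows: *Snrpn* in CH12 from M to L (gene end, 600 kb, second start), *Igf2* in primary B cells from M to E (600 kb), *Kcnq1* in primary B cells from E to M (gene body), *Igf2r* in both B cell maps from E to M (gene end), and *Grb10* from M to E in CH12 (gene body, gene end, 600 kb) and in primary B cells (gene end). Over all annotated genes the background was 44.8% E and 28.4% L in CH12, 51.7% E, 30.9% M and 17.4% L in primary B cells and 51.8% E, 31.9% M and 16.3% L in MEFs. On autosomes it was 51.8% E and 21.3% L in CH12, 59.2% E and 28.2% M in primary B cells and 61.1% E, 27.9% M and 11.0% L in MEFs. The cause of the other moves was not tested. Domains of at least 100 kb, and the state at most transcript starts (chosen after seeing the data), changed the state of none of the 10 genes.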

Other observations

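Among the imprinted genes outside the 7 clusters, the states of 16 matched genes were 4 E, 9 M and 3 L in CH12, 8 E, 8 M and 0 L in primary B cells and 10 E, 6 M and 0 L in MEFs. Over all protein-coding starts, 50.6% were E, 27.2% M and 22.1% L in CH12. The primary B map had 58.0%, 29.1% and 12.9%, and the MEF map 58.6%, 29.6% and 11.9%. *Peg10*, a gene derived from a retrotransposon, and its neighbour *Sgce* were L in CH12, M in primary B cells and E in MEFs. *Mest* and *Plagl1*, which act on fetal growth, and the amino acid transporter gene *Slc38a4* were M in CH12 and E in the other maps. *Slc38a4* lay in a domain of 140 kb in CH12, 5160 kb in primary B cells and 7354 kb in MEFs. *Gnas*, which encodes a G protein subunit, was E in primary B cells and M in CH12 and MEFs, and *Rasgrf1* was E in both B cell maps and M in MEFs. *Plagl1* lay 29.5 kb from a domain edge in primary B cells, and *Mest* 73.5 kb and *Slc38a4* 33.6 kb in CH12. *Gnas* lay 50.2 kb from one in CH12 and 29.8 kb in primary B cells, and *Rasgrf1* 4.61 kb in CH12. *Peg10* and *Sgce* lay 22.7 kb and 22.8 kb from one in MEFs. Distances in the other maps were longer for each gene. All those given are below the 300 kb smoothing span, and no background share is given for these combinations. These values have no replicate check.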
